A study of Mus musculus with 8 samples.

Results

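The genes of urea transport and of the medullary osmolytes comprise 7 genes, chosen by name: the urea transporters Slc14a1 and Slc14a2, the transcription factor Nfat5, the osmolyte transporters Slc5a3, Slc6a12 and Slc6a6, and the aldose reductase Akr1b3. They were read by 15 probes, out of 26026 probes tested and 18217 genes named on the array. All 15 probes were bright enough to be tested, and each is given on its own. Kidney RNA came from 8 mice, with 1 Agilent single-colour array per mouse. The 4 NEKO mice (2 females and 2 males) were Keap1-/-::Nrf2 Flox/Flox::K5-Cre, lacking Keap1, the repressor of the stress-response factor Nrf2, in every tissue. The 4 controls (2 females and 2 males) carried 1 working Keap1 allele: 1 female was K1, Keap1+/-::Nrf2 Flox/Flox, and the other 3 mice were K1Cre, Keap1+/-::Nrf2 Flox/Flox::K5-Cre. All 8 mice were therefore Nrf2 Flox/Flox, were 8 weeks old and had a mixed 129Sv/J and C57BL/6J background. The K5-Cre transgene deletes Nrf2 in squamous epithelium, where the Keratin5 promoter is active. The controls were littermates of the NEKO mice, per the methods.

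The kidney medulla concentrates urine with the help of urea, which collecting duct cells release through UT-A channels, encoded by Slc14a2 in several transcripts, and which the descending vasa recta and red cells take up through UT-B, encoded by Slc14a1. Medullary cells balance the salt and urea around them with organic osmolytes: myo-inositol, betaine and taurine are imported, and sorbitol is made from glucose by aldose reductase. The transcription factor NFAT5, also called the tonicity-responsive enhancer binding protein, is known to raise the genes of these transporters and of aldose reductase when the surroundings become hypertonic.

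Each level is the log2 processed signal less the 75th percentile of its array (control probes left aside), so that 0 is the level of a fairly bright probe. They compare arrays for 1 probe and do not rank different probes. Keap1, the gene deleted in NEKO mice, read 1.80 and 1.77 in control females, 1.92 and 1.87 in control males, 0.45 and 0.06 in NEKO females and 0.14 and 0.16 in NEKO males, a difference of -1.63 ± 0.10 (SE, limma, adjusted p = 0.0053). Its 4 NEKO values all lay below its 4 control values. The share of probes well above background ran from 61.7% to 65.7% over the arrays, none was saturated, and the arrays correlated with each other at 0.967 to 0.990. Markers of kidney were well above background on all 8 arrays, among them Umod of the thick ascending limb, Lrp2 of the proximal tubule and Aqp2 of the collecting duct. The 4 females shared 1 slide and the 4 males another. Sex therefore cannot be told apart from slide, and each within-sex value is also a within-slide value.

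No member probe was called between 4 NEKO and 4 control kidneys with sex as a covariate (limma, adjusted p under 0.05). Across all tested probes, 0.227% were called, 0.0884% higher and 0.138% lower in NEKO. At an unadjusted p under 0.05 there were 4 member probes, all with lower means in NEKO (the NM_207651 probe of Slc14a2, both Slc5a3 probes and the Slc6a12 probe), against 16.9% of all probes. No member probe separated the 4 NEKO from the 4 control mice, as 8.63% of all probes did (3.59% with NEKO above and 5.04% with NEKO below). Of the 15 log2 differences 8 were above 0 and 7 below, with a median of 0.05 beside -0.03 over all probes.

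Within the males, 4 of the 15 probes were called, all lower in NEKO: Slc14a2 by its NM_207651 probe, Slc5a3 by both of its probes, and Slc6a12. Over all probes 1.34% were called lower and 2.35% higher within males, 3.7% in either direction. Within the females no member probe was called (smallest adjusted p = 0.62), where 0.0461% of all probes were. The median log2 difference of the 15 probes was 0.09 in females and -0.16 in males, while that of all tested probes was -0.02 and -0.03. Each of these comparisons rests on 2 NEKO and 2 control mice, with the spread pooled over the 4 combinations of sex and genotype.

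**Figure D1:**
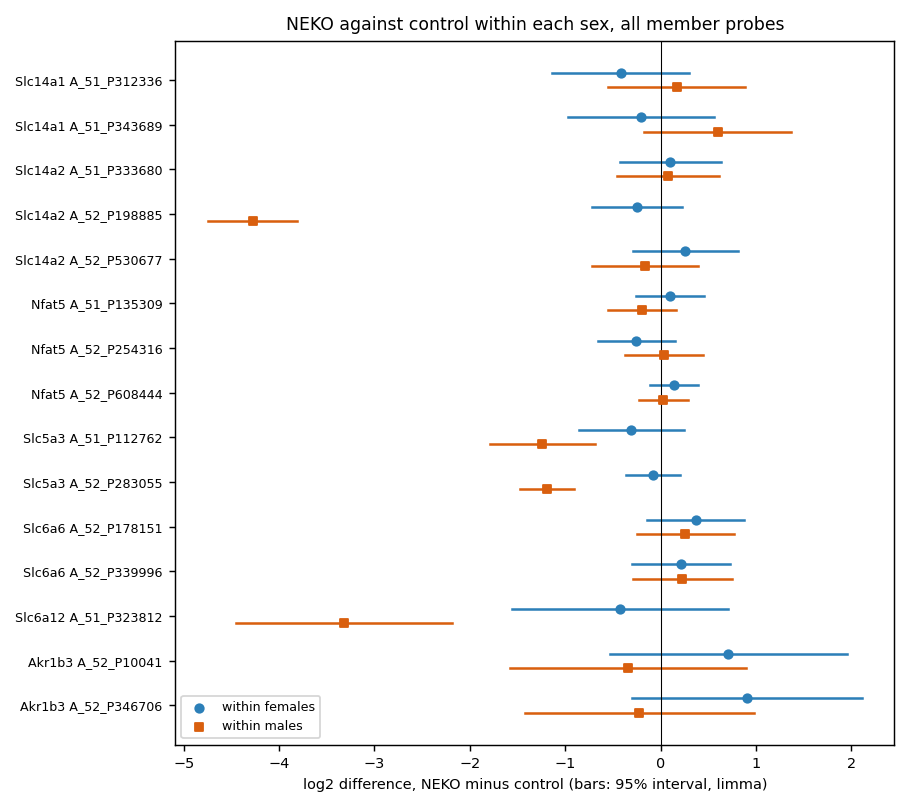
NEKO minus control on the log2 scale (horizontal axis) for each of the 15 probes of the 7 genes, within females (circles) and within males (squares), 2 mice against 2 in each; bars are 95% intervals from limma. The male values of Slc14a2 A_52_P198885 (-4.28), Slc6a12 (-3.32) and the Slc5a3 probes (-1.24 and -1.19) lie apart from 0, and every female interval includes 0.

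Slc14a2 was read by 3 probes, and they differed from each other. The probe A_52_P198885, assigned to the transcript NM_207651, read 2.89 and 2.36 in control females, 2.02 and 2.09 in control males, 2.25 and 2.52 in NEKO females, and -2.26 and -2.19 in NEKO males. Both NEKO males lay far below the other 6 kidneys, whose values ran from 2.02 to 2.89, and the NEKO females lay within the range of the controls. The group means were 2.34 ± 0.40 (SD, n = 4) in controls and 0.08 ± 2.66 in NEKO mice, a difference of -2.26 ± 0.76 (SE) that was not called (limma, adjusted p = 0.22; exact two-sided permutation p = 0.257). Within the males the level fell by 4.28 ± 0.19 (SE) on the log2 scale, which is 19.4-fold (limma, adjusted p = 0.0014). Within the females the difference was -0.25, with a 95% interval from -0.72 to 0.22 (limma, adjusted p = 0.71).

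The effect on this probe differed between the sexes by -4.03 ± 0.27 (SE, limma interaction, adjusted p = 0.032). It was the only member probe among the 4 probes of the whole array with a called interaction, which are 0.0154% of those tested. The interaction had an unadjusted p under 0.05 for 4 of the 15 member probes, and for 10.1% of all probes. Leaving out control 1, the K1 female, left an interaction of -4.30 (limma, adjusted p = 0.029). Without any 1 of the other 7 mice the value stayed between -4.17 and -3.76 and the call was lost, with adjusted p from 0.071 to 0.177, whereas the fall within males was called in all 8 of these fits. Ordered by mean, the levels were 2.63 in control females, 2.38 in NEKO females, 2.06 in control males and -2.22 in NEKO males. The control and NEKO females overlapped, and control males lay just under the lowest female.

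The other Slc14a2 probes are both assigned to the transcript NM_030683. A_51_P333680 read 0.86 and 1.03 in control females, 0.80 and 0.97 in control males, 1.29 and 0.81 in NEKO females and 1.20 and 0.73 in NEKO males. Its highest and its lowest value were both from NEKO mice, and its difference was 0.09, with a 95% interval from -0.25 to 0.43 (limma, adjusted p = 0.78). A_52_P530677 was dim on every array, from -3.85 to -2.83, and differed by 0.05 (95% interval -0.35 to 0.45). Within males these probes differed by 0.08 (95% interval -0.46 to 0.61) and -0.16 (-0.72 to 0.39), intervals that do not reach the fall of the NM_207651 probe. Which UT-A product each probe reads is not stated in the sources used here.

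**Figure D2:**
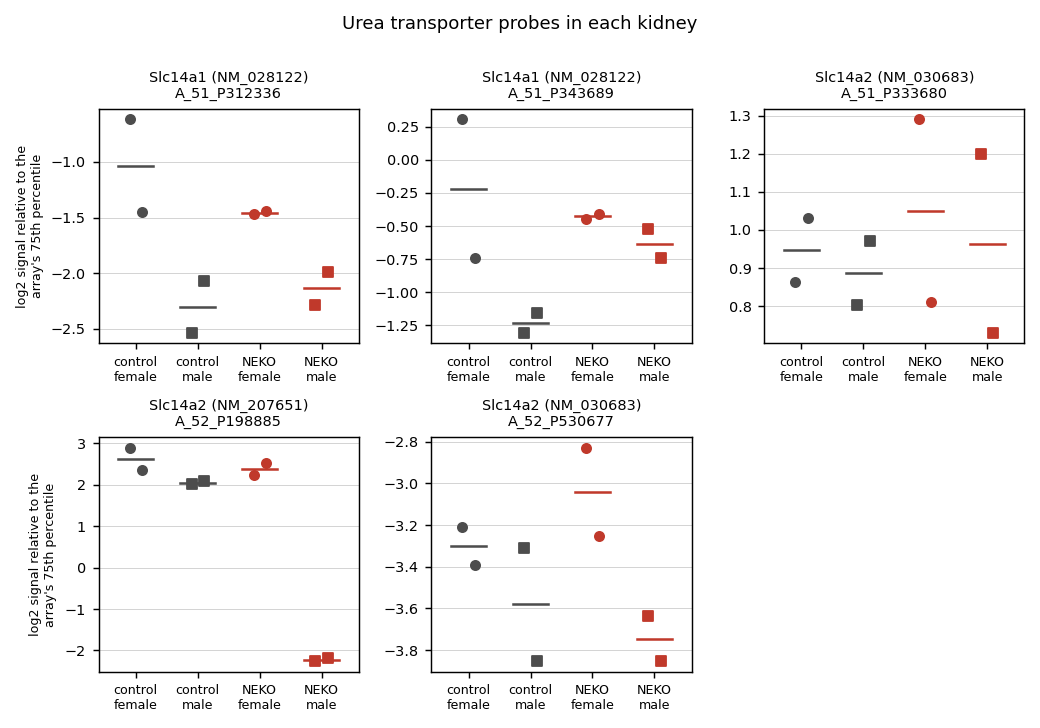
Log2 signal relative to the 75th percentile of each array (vertical axis, with its own scale in each panel) of the urea transporter probes in the 8 kidneys; each point is 1 mouse, circles are females, squares are males, and lines are means of 2. Slc14a2 A_52_P198885 is at -2.26 and -2.19 in NEKO males and at 2.02 or above in the other 6 mice, and the other Slc14a2 probes overlap between the groups.

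Slc14a1, which encodes UT-B, was read by 2 probes of the transcript NM_028122. A_51_P312336 read -0.62 and -1.45 in control females, -2.54 and -2.07 in control males, -1.47 and -1.44 in NEKO females and -2.28 and -1.99 in NEKO males. All 4 females lay above all 4 males, while NEKO and control mice overlapped, with a difference of -0.13 (95% interval -0.66 to 0.40; limma, adjusted p = 0.80). Among the 15 member probes 4 separated the females from the males, with females above in each, and 12% of all probes did so in either direction (5.38% with females above). A_51_P343689 read 0.31 and -0.74 in control females, -1.31 and -1.15 in control males, -0.44 and -0.41 in NEKO females and -0.52 and -0.74 in NEKO males. Control males were the lowest here and control female 1 the highest, and the NEKO mice of either sex lay between them. The difference of this probe was 0.20 (95% interval -0.42 to 0.81; limma, adjusted p = 0.72), and it was 0.49 without control 1 and 0.066 without control 8, uncalled in each.

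Slc14a1 is also a gene of red cells and vasa recta. Of 8 red cell and erythroid marker genes 3 were tested, Alas2, Hba-a1 and Hbb-bt, with none called. The log2 of their summed signal ran from 6.18 to 8.61 in controls and from 7.48 to 9.48 in NEKO mice. Control female 1, the highest kidney for both Slc14a1 probes, was the lowest for Hba-a1 (4.73) and Hbb-bt (5.50). For the 6 endothelial and vasa recta markers, all tested and none called, the summed level was 6.71 to 6.96 in controls and 6.67 to 6.90 in NEKO mice. Most of the endothelial and vasa recta sum was Aqp1, which read 6.17 to 6.51 over the 8 mice. The sum therefore follows Aqp1, says little about the dimmer markers, and is not a measure of vasa recta content. Within males the differences of the 6 markers ran from -0.02 (Aqp1) to 0.47 (Cdh5). The part of either cell type in the Slc14a1 values was not tested.

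Nfat5 was read by 3 probes, and none of them was called in any comparison. A_52_P608444 (NM_133957) read 0.81 and 0.73 in control females, 0.60 and 0.60 in control males, 0.98 and 0.83 in NEKO females and 0.65 and 0.61 in NEKO males. The females lay above the males in both genotypes, and the difference between genotypes was 0.09 (95% interval -0.08 to 0.26; limma, adjusted p = 0.57). The dim probes A_51_P135309 and A_52_P254316 (NM_018823) ranged from -5.19 to -4.76 and from -3.99 to -3.51, with differences of -0.05 and -0.11. A_51_P135309 was not well above background in 1 NEKO male. NFAT5 protein and its activity were not measured.

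Slc5a3 encodes SMIT1, the sodium-coupled importer of myo-inositol. A_52_P283055 read 1.55 and 1.69 in control females, 1.21 and 1.41 in control males, 1.55 and 1.54 in NEKO females and 0.10 and 0.13 in NEKO males. The NEKO males were the lowest of the 8 and the NEKO females were at or near the level of the control females. Within males the level fell by 1.19 ± 0.12 (SE), or 2.29-fold (limma, adjusted p = 0.0074), and within females the difference was -0.08 (95% interval -0.36 to 0.20). A_51_P112762 read -1.22 and -0.92 in control females, -1.25 and -1.41 in control males, -1.34 and -1.42 in NEKO females and -2.24 and -2.90 in NEKO males. It again placed the NEKO males lowest, and within males it fell by 1.24 ± 0.23 (SE), or 2.36-fold (limma, adjusted p = 0.043), with a difference of -0.31 in females (95% interval -0.86 to 0.25). The difference between the sexes was -1.11 and -0.93 for the 2 probes, and neither was called (limma interaction, adjusted p = 0.11 and 0.39). The call of A_52_P283055 within males held without any 1 mouse. That of A_51_P112762 held only without NEKO 5 and was lost without each of the other 7 mice, with values from -1.32 to -0.91 and adjusted p from 0.071 to 0.212.

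Slc6a12 encodes BGT1, the importer of betaine and GABA, and was read by 1 probe, A_51_P323812 (NM_133661). It read -2.57 and -2.47 in control females, -2.87 and -1.94 in control males, -2.32 and -3.57 in NEKO females and -5.49 and -5.97 in NEKO males. Both NEKO males were below the other 6 mice, and 1 NEKO female was below all controls while the other was inside their range. The probe was well above background in all 4 controls and both NEKO females but in neither NEKO male. The size of the male difference therefore depends on the floor taken. The measured means were -5.73 in NEKO males and -2.41 in control males, a difference of -3.32 (limma, adjusted p = 0.0215). Against the lowest signal of any detected probe, Slc6a12 was 7.88-fold lower in NEKO males, a value with no test of its own. That floor is lenient, and the fold is not a lower limit of the fall. Within females the difference was -0.43 (95% interval -1.56 to 0.71), and the difference between the sexes was -2.89 ± 0.66 (SE, limma interaction, adjusted p = 0.19). The male call was lost when any 1 of the 4 males was left out (values -3.78 to -2.85, adjusted p from 0.057 to 0.108). With another background correction, normexp, the male difference was -1.34 and was still called (limma, adjusted p = 0.039).

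The promoter of Slc6a12 is shown because the betaine transporter gene is a classic target of NFAT5. RefSeq on GRCm38.p6 gives 5 start sites, and the window of 250 bases before the most upstream of them, chr6:121342324-121342573 on the plus strand, holds a match to the tonicity-responsive enhancer (capitals), searched on both strands. The match begins 75 bases before the start.

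Slc6a12 promoter: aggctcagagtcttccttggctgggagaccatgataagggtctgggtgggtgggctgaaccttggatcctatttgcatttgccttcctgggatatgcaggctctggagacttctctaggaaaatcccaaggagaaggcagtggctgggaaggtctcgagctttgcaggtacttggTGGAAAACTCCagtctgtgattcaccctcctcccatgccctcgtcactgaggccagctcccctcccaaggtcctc

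The other 4 Slc6a12 windows, which overlap each other in part, 1 window of Nfat5 and 1 of Slc5a3 hold no match, and 4.31% of all 32851 windows of this length hold one. The core of the antioxidant response element bound by Nrf2, TGACNNNGC, is in none of these 7 windows and in 10.16% of all. The table used holds windows for 3 of the 7 genes, and a match is a description of the sequence and not a site. Slc6a12, with the match, and Slc5a3, without it, were both called lower in NEKO males, as given above.

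Slc6a6, the taurine transporter TauT, had higher means in NEKO mice by both of its probes (NM_009320) and was called by neither. A_52_P178151 read 0.34 and -0.22 in control females, 0.08 and -0.12 in control males, 0.28 and 0.57 in NEKO females and 0.17 and 0.31 in NEKO males. The control female K1 lay inside the NEKO range, and the difference was 0.31 (95% interval -0.02 to 0.65; limma, adjusted p = 0.32). A_52_P339996 read 5.52 and 4.87 in control females, 5.25 and 5.37 in control males, 5.40 and 5.42 in NEKO females and 5.63 and 5.45 in NEKO males, a difference of 0.22 (95% interval -0.11 to 0.55; limma, adjusted p = 0.46). Here too only the K1 female among the controls reached the NEKO range, and the difference was 0.35 without that mouse and 0.091 without control 8, uncalled in each. Within males the differences were 0.26 and 0.23, with intervals from -0.25 to 0.77 and from -0.29 to 0.74 that do not reach the falls of Slc5a3.

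Akr1b3, aldose reductase, which reduces glucose to sorbitol, varied among mice of 1 group more than between groups. A_52_P10041 (NM_009658) read 3.08 and 3.93 in control females, 4.13 and 3.70 in control males, 4.93 and 3.50 in NEKO females and 3.84 and 3.31 in NEKO males. The highest value was that of NEKO female 2 and the lowest that of the K1 control female, and the difference was 0.18 (95% interval -0.74 to 1.11; limma, adjusted p = 0.83). A_52_P346706 read 1.65 and 2.67, 2.71 and 2.33, 3.71 and 2.42, and 2.51 and 2.09 in the same order, with the same mice at its extremes and a difference of 0.34 (95% interval -0.58 to 1.26; limma, adjusted p = 0.68). Without NEKO female 2 the differences were -0.21 and -0.03. Within males they were -0.34 and -0.22, and the intervals, -1.58 to 0.90 and -1.43 to 0.98, leave room for a 2-fold fall.

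**Figure D3:**
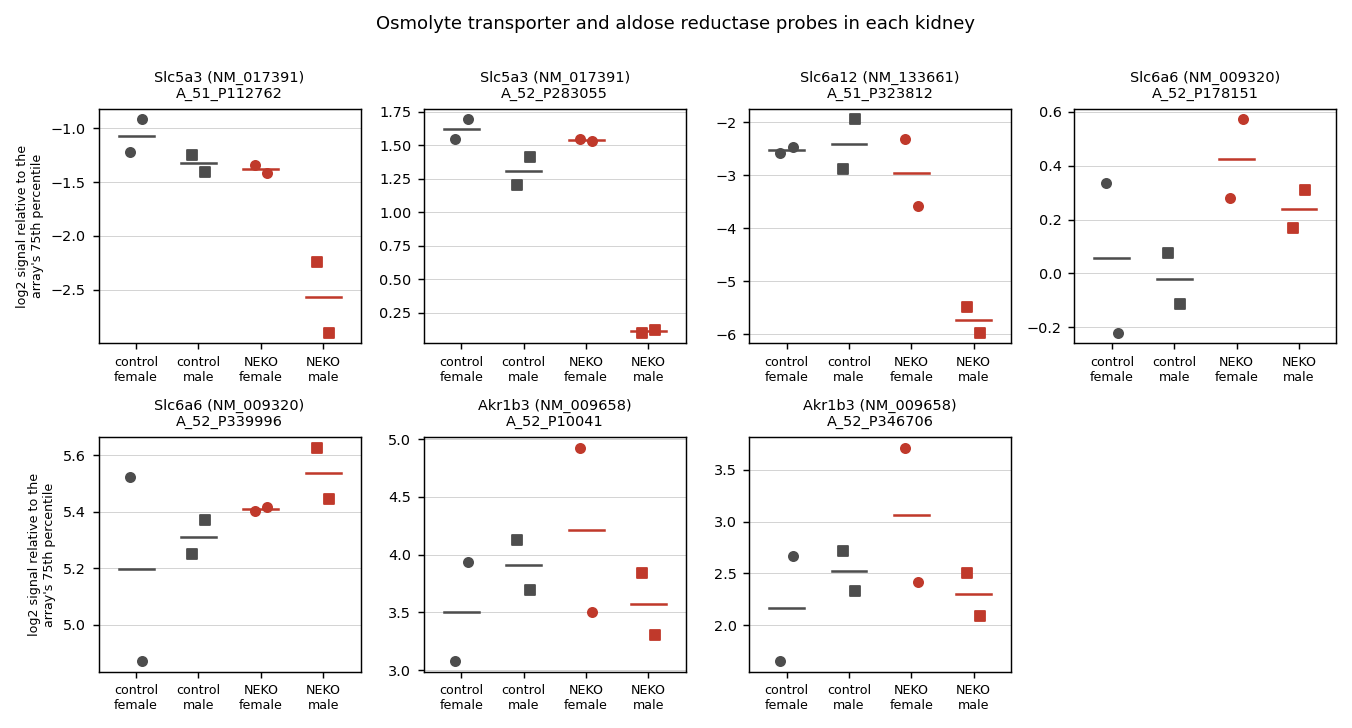
Log2 signal relative to the 75th percentile of each array (vertical axis, with its own scale in each panel) of the osmolyte transporter and aldose reductase probes in the 8 kidneys; each point is 1 mouse, circles are females, squares are males, and lines are means of 2. NEKO males are lowest for both Slc5a3 probes and for Slc6a12 (-5.49 and -5.97, not well above background), and the groups overlap for Slc6a6 and Akr1b3.

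The other genes of osmolyte handling were described by lists. Of 5 further osmolyte transporter genes, all tested, none was called between genotypes, with a median difference of 0.08 (0.03 in females and -0.08 in males), and 1 was called within males. That gene was Slc2a13, which encodes the proton-coupled myo-inositol transporter HMIT. It read -1.41 and -1.64 in control females, -1.74 and -1.55 in control males, -1.47 and -1.53 in NEKO females and -3.15 and -3.16 in NEKO males. Both NEKO males were below the other 6 mice, and within males the level fell by 1.51 ± 0.13 (SE, limma, adjusted p = 0.0052). Over all probes 1.34% were called lower within males. The interaction of Slc2a13 was not called (limma, adjusted p = 0.075). The choline transporter Slc44a1 differed by 0.15 (limma, adjusted p = 0.48).

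Of 13 genes that make or break down sorbitol, glycerophosphocholine, inositol, betaine and taurine, 12 were tested and none was called, between genotypes or within males. Their median was 0.07 between genotypes, 0.15 in females and -0.12 in males. Bhmt, which uses betaine to remake methionine, differed by 0.55 (limma, adjusted p = 0.42), and Isyna1, which makes inositol phosphate from glucose phosphate, by -0.47 (limma, adjusted p = 0.19). The groups of 4 did not overlap for Aldh7a1, which oxidises betaine aldehyde (0.43), and Gdpd5, which cleaves glycerophosphocholine (0.32), both higher in NEKO without being called. Across all probes 3.59% were separated with NEKO above.

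All 9 other genes of the hypertonicity response were tested and none was called, between genotypes or within males. Their log2 differences ranged from -0.34 to 0.30 around a median of -0.01. Tsc22d2 lay lower in each NEKO mouse than in each control (-0.34; limma, adjusted p = 0.18), and the chaperone Cryab differed by 0.30 (limma, adjusted p = 0.44). Of 5 genes of urea and arginine metabolism, 4 were tested and none was called, with a median of -0.13. Agmat, an agmatinase that releases urea, lay lower in each NEKO mouse (-0.73, limma, adjusted p = 0.18), and the arginase Arg2 differed by 0.38 (limma, adjusted p = 0.48). Across all probes 5.04% were separated with NEKO below, as Tsc22d2 and Agmat were.

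Some markers of the nephron segments that carry these transporters were also called lower within males, and no marker list held a called interaction. The markers were chosen for naming with their values in view. Over all probes 1.34% were called lower within males. Of 5 markers of the thin limbs and inner medulla, all tested, 3 were called lower in NEKO males: Bst1 (-1.01), Fst and Slc4a11. Against the lowest signal of any detected probe, Fst was 17.9-fold and Slc4a11 4.00-fold lower in NEKO males. The other markers, Epha7 (0.35 in males) and Sptssb (1.54), had higher means in NEKO and were not called. Sptssb lay higher in each NEKO mouse than in each control, as 3.59% of all probes did. The list's median was 0.14 in females and -1.01 in males, and the log2 of its summed signal was -0.13 to -0.013 in NEKO males, 0.44 to 0.82 in control males and 0.44 to 0.89 over all controls. Fst and Slc4a11 were not well above background in either NEKO male. Fst was also lower in NEKO females, at -2.76 and -3.18 against -1.64 to -0.84 in the controls, a female difference of -1.65 that was not called (limma, adjusted p = 0.52).

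Of 8 principal cell markers of the collecting duct 2 were called lower in NEKO males, Hsd11b2 (-1.46) and Scnn1b (-0.95), and their summed level was 5.46 to 5.83 in NEKO males against 5.92 to 6.06 in control males. Of the 6 that were not called, the male differences ran from -2.03 for the water channel Aqp4 to 0.33 for the vasopressin receptor Avpr2, with Aqp2 at -0.24 and Aqp3 at -0.17. Of 5 thick ascending limb markers 2 were called lower in NEKO males, Kcnj1 (-0.94) and Ptger3 (-1.31), with a summed level of 7.64 to 7.84 against 8.26 to 8.29. None of the 5 proximal tubule markers was called, and their male differences ran from -0.56 (Slc5a2) to 0.23 (Slc22a6) around a median of -0.03. Slc5a2 lay lower in each NEKO mouse than in each control (-0.43, limma, adjusted p = 0.13). Across all probes 5.04% were separated with NEKO below. Slc22a6 differed by 0.34 between genotypes, with overlap (limma, adjusted p = 0.17). These are whole kidneys, in which fewer cells of a segment and less RNA per cell cannot be told apart, and the part of the segment markers in the fall of Slc14a2, Slc5a3 and Slc6a12 was not tested.

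Of 7 urothelial markers 4 were called higher in NEKO males, all of them uroplakins (Upk1b, Upk2, Upk3a and Upk3b). Over all probes 2.35% were called higher within males. The uroplakin Upk1a was lower in each NEKO mouse than in each control (-0.71, with -1.22 in females and -0.20 in males) and was not called. Such a separation with NEKO below was found for 5.04% of all probes. Krt5 (1.85) and Upk3b (0.78) were higher in each NEKO mouse than in each control, and neither was called between genotypes. Separation with NEKO above was found for 3.59% of all probes. The list's summed level was 2.56 to 2.60 against 0.34 to 0.97 in control males. Of the 6 leukocyte markers 4 were tested and none was called, with a summed level of 1.45 to 2.05 in NEKO males against 1.69 in each control male. The sum joins opposite movements. Within males Csf1r, its largest part, differed by -0.67, and Ptprc (0.71), Adgre1 (0.66) and Cd3e (0.54) had higher means in NEKO. Cd3e had no value in control male 4. The higher means of Adgre1 and Cd3e came from NEKO 6 (0.74 and -3.30). NEKO 5 (-0.51 and -4.47) was near the control males. Of 7 Nrf2 target genes 6 were tested, with a median difference of 0.60 in females and 1.58 in males, and 3 were called in males (Nqo1, Srxn1 and Txnrd1). Txnrd1 was also called between genotypes (limma, adjusted p = 0.047). The part of these in the male result was not tested.

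**Figure D4:**
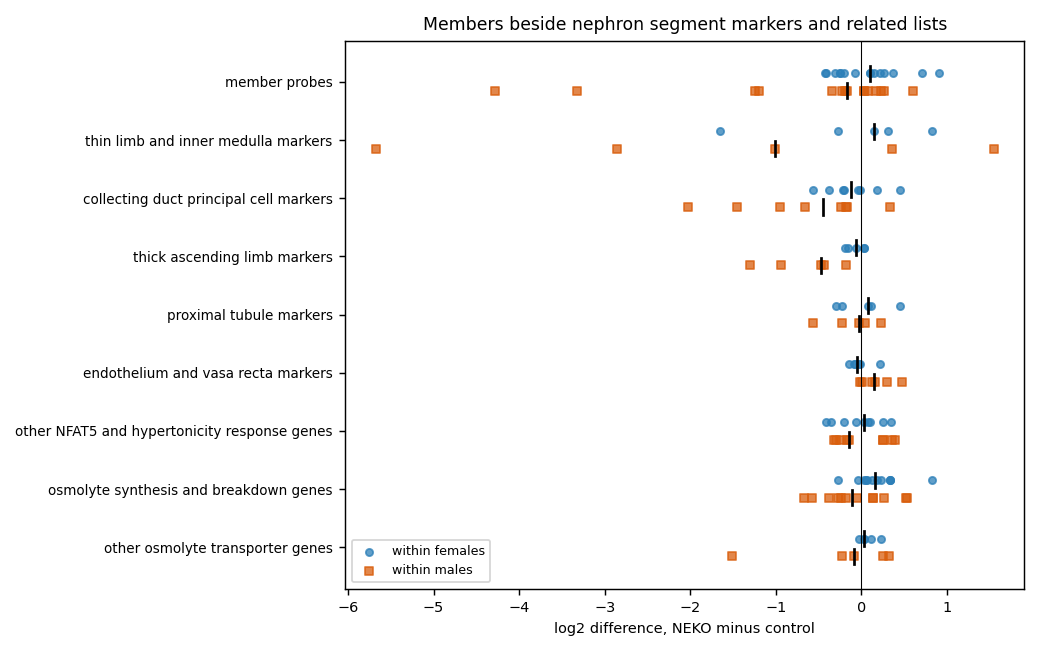
NEKO minus control on the log2 scale (horizontal axis) within females (circles) and within males (squares) for the 15 probes of the 7 genes and for 1 probe per gene of 8 lists; short black lines are medians. The thin limb and inner medulla markers have a median of -1.01 in males and 0.14 in females, the proximal tubule markers have medians of -0.03 in males and 0.08 in females, and Slc2a13 (-1.51 in males) stands apart among the other osmolyte transporters.

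The member probe with the widest spread over the 8 kidneys was Slc14a2 A_52_P198885 (SD 2.14), which ranked 53 of the 26026 tested probes. The 5 named genes with the most similar profile, by the root mean square difference of log2 levels centred on each gene's mean over the 8 mice, were Kcnt1 (0.46), Corin (0.49), Ceacam2 (0.58), Aqp6 (0.62) and Dok7 (0.81), where the median over genes was 2.00. On this centred scale Kcnt1, a sodium-activated potassium channel, was at 0.38 to 1.41 in controls, 0.94 and 0.81 in NEKO females and -2.51 and -3.05 in NEKO males. Corin, a membrane protease, was at 0.10 to 1.20 in controls, 1.37 and 1.49 in NEKO females and -2.60 and -3.09 in NEKO males. Aqp6, a channel of collecting duct intercalated cells, was at 0.66 to 1.54 in controls, 0.82 and 1.00 in NEKO females and -2.09 and -4.30 in NEKO males. In all 3 genes the NEKO males were below their gene's mean and the other 6 mice above it. That is the pattern of the Slc14a2 probe they were chosen to resemble. Corin, Ceacam2 and Dok7 were well above background on 6 of the 8 arrays and Aqp6 on 7. The likeness is given over 8 samples that share slides and groups, with no test.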

How the data were processed

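The authors deposited Agilent Feature Extraction output (version 10.7.3.1) for each of 8 single-colour (Cy3) arrays, with intensity values per spot; its processed signal is background-subtracted and spatially detrended and is not normalized between arrays. Their deposited matrix holds log2 values relative to the 75th percentile of each array and centred on each probe's median; 100% of its values lay within 0.01 of recomputed ones. The number of arrays limits the precision, since arrays hold no counts.

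Outlier spots were left out, spots of 1 probe were averaged, and each log2 processed signal was taken less the 75th percentile of its array over the non-control probes. A probe was tested if it was well above background on 4 or more arrays and had a value on 6 or more. Probes were named by matching transcript accessions to RefSeq (GRCm38.p6): of 41174 probes, 26690 had a match, to 18217 genes. The array's own coordinates are on mm9 and were not used. All 5 Slc6a12 windows and the others came from RefSeq.

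Fits used lmFit and eBayes of limma 3.58.1 (R 4.3.3), with genotype and sex, and Benjamini-Hochberg adjustment over all probes tested; a second model added their interaction and gave the within-sex values. Called means an adjusted p under 0.05. The methods name no test for the arrays beyond an unpaired comparison for the whole paper. Each array is a separate mouse. The procedure was tested on simulated data. Figures were drawn with Python 3.11.15 and matplotlib 3.10.9.

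For a probe that no array of a group measured well above background, the size of the difference depends on a floor. The bright group's mean was set against a mean for the dim group. In it each array gave its lowest detected signal over all probes, or the probe's own if higher. This floor is lenient, and the fold is not a lower limit.

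The members and lists were chosen with earlier results of these data known. Named were all members, the called genes and the 2 largest differences of each list of related genes, and the 5 genes most like the member probe of widest spread. In the list of thin limb and inner medulla markers, 1 item is not reported here. A gene of a list was read from its tested probe with the highest mean. Segment and cell type markers, Slc2a13, Aldh7a1 and Gdpd5 were chosen for naming with their values in view. Alternatives were normexp background correction (offset 50), quantile normalization, scaling to the median of probes detected on all arrays, no filter or detection on all 8 arrays, 1 probe per gene, eBayes with trend and robust, array weights, the deposited matrix, no sex term, the slide as a random block, the effect averaged over the sexes, the methods' comparison, and leaving out each mouse. The within-male results and their alternatives were added after seeing the data.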

Additional observations from a re-analysis of the deposited data

Results flagged for a closer look

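The NM_207651 probe of Slc14a2 (A_52_P198885) had a genotype effect that differed between the sexes by -4.03 on the log2 scale, males minus females (limma interaction, adjusted p = 0.032). The effect was -4.28 in males and -0.25 in females, and both NEKO males lay below the other 6 mice. Sex and slide cannot be told apart. Among the 46 groups of 4 mice that were looked at for a single mouse far from the other 3, over the 15 probes of the 7 genes and the genes named beside them, none was found.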

How the results depend on the processing

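No paired analysis was possible because the replicate numbers run over both groups and none is shared. The number of all probes called between genotypes was 59, and it was 210 with normexp, 33 with no filter, 36 with detection on all 8 arrays, 109 with trend and robust eBayes, 182 with array weights, 36 with no sex term, 586 when averaged over the sexes, 1 by the methods' comparison with adjustment and 2760 without adjustment, and 14 to 45 when 1 mouse was left out. Averaged over the sexes, where 586 of 26025 probes were called, 3 of the 15 member probes were called between genotypes in place of 0. These were Slc14a2 A_52_P198885 (-2.26, limma, adjusted p = 0.0037), Slc5a3 A_52_P283055 (-0.64, adjusted p = 0.022) and Slc6a12 (-1.87, adjusted p = 0.049). Leaving out 1 mouse from the main fit, with sex as a covariate, gave 0 each time. The averaged effect was not refitted without a mouse. It joins female differences of -0.25, -0.08 and -0.43 for these 3 probes, all uncalled, with male differences of -4.28, -1.19 and -3.32. The number of interactions over all probes was 4, and it was 22 with normexp, 15 with trend and robust eBayes, 24 with array weights and 0 to 4 without 1 mouse. The 1 member interaction, of Slc14a2 A_52_P198885, became 0 with no filter (-4.03, limma, adjusted p = 0.057), and leaving out mice gave 0 to 1. Within males 962 probes were called, 572 with no filter and 220 to 688 without 1 mouse, and the 4 member probes became 2 to 3 without 1 mouse and 3 with no filter, where Slc5a3 A_51_P112762 was lost (limma, adjusted p = 0.084). Small differences changed sign. Between genotypes these were Nfat5 A_51_P135309 (0.028 with normexp, 0.044 with quantile normalization, -0.10 to 0.060 without 1 mouse), Slc14a1 A_51_P312336 (-0.28 to 0.10), Akr1b3 A_52_P10041 (-0.21 to 0.40) and A_52_P346706 (-0.031 to 0.54), and Slc14a2 A_51_P333680 (-0.0084 to 0.19) and A_52_P530677 (-0.079 to 0.20), all without 1 mouse. In the interaction they were Slc14a2 A_51_P333680 (0.027 with normexp, -0.27 to 0.21 without 1 mouse), Slc6a6 A_52_P339996 (-0.019 with normexp, -0.31 to 0.34) and Slc6a6 A_52_P178151 (0.032 with array weights, -0.39 to 0.17). Within males they were Nfat5 A_52_P254316 (-0.019 with normexp, -0.11 to 0.18 without 1 mouse), Nfat5 A_51_P135309 (-0.39 to 0.0083), Slc14a1 A_51_P312336 (-0.062 to 0.40), and Slc14a2 A_51_P333680 (-0.16 to 0.31) and A_52_P530677 (-0.43 to 0.11). Where a male is left out, the lone mouse of its arm is assumed to vary like the other groups. The causes were not tested.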
